A study of Petunia x hybrida with 7 samples.

Results

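PhDEF is the petunia DEFICIENS protein, a MADS-domain transcription factor of the floral B class. Such proteins bind DNA as dimers at CArG boxes and specify petal identity. A petal is built from clonally distinct cell layers: the outer one forms the epidermis and an inner one the mesophyll. The regions described here carried a PhDEF peak in both layer chimeras, wico and star, and none in the wild type.

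PhDEF binding had been mapped by chromatin immunoprecipitation and sequencing at flower stage 8 in petals of Petunia x hybrida (cultivar R27) that included both the tube and the limb. The 3 genotypes were the wild type, wico, whose epidermis is wild-type and whose mesophyll is mutant for phdef, and star, with a mutant epidermis and a wild-type mesophyll. Each genotype had 2 immunoprecipitated libraries, and 1 input library came from wild-type petals. Every sample was cross-linked in 2 steps, first for 1 h in 2.5 mM disuccinimidyl glutarate (DSG) and then for 5 min in 1% formaldehyde. Both chimeras therefore share a layer without functional PhDEF, in opposite positions. Because whole petals were used, weaker binding per nucleus and fewer nuclei with PhDEF cannot be told apart.

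The data were 3 lists of reproducible peaks, 1 per genotype, each combining its 2 libraries. Peaks of the 3 lists on the scaffolds HiC_scaffold_1 to HiC_scaffold_7 were merged into regions wherever they shared at least 1 bp. This gave 5073 regions from 2687 wild-type, 3692 wico and 1781 star peaks. Of these, 208 regions held a wico and a star peak and no wild-type peak, which is 4.10% of all regions. Each of them held exactly 1 wico and 1 star peak. The regions were chosen by these peak calls, so their presence and strength in the lists are given as a description, without a test. The lists hold no read counts, so the depth is unknown, and a site that missed the wild-type threshold looks the same as an unbound site. The cause of the missing wild-type call was not tested.

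The 208 regions were a minority of what each chimera held without the wild type. Of 1769 wico regions without a wild-type peak, 208 also held a star peak, or 11.8% (95% exact binomial interval 10.3 to 13.4%, for counting error only, as for all shares below). Of 828 star regions without a wild-type peak, the same 208 also held a wico peak, or 25.1% (22.2 to 28.2%). Where a wild-type peak was present the corresponding shares were 42.4% of 1919 wico regions and 85.7% of 950 star regions. Over all regions of a list they were 27.7% in wico and 57.5% in star. A site bound in the wild type was thus found in the second chimera more often than a site without a wild-type peak.

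**Figure D1:**
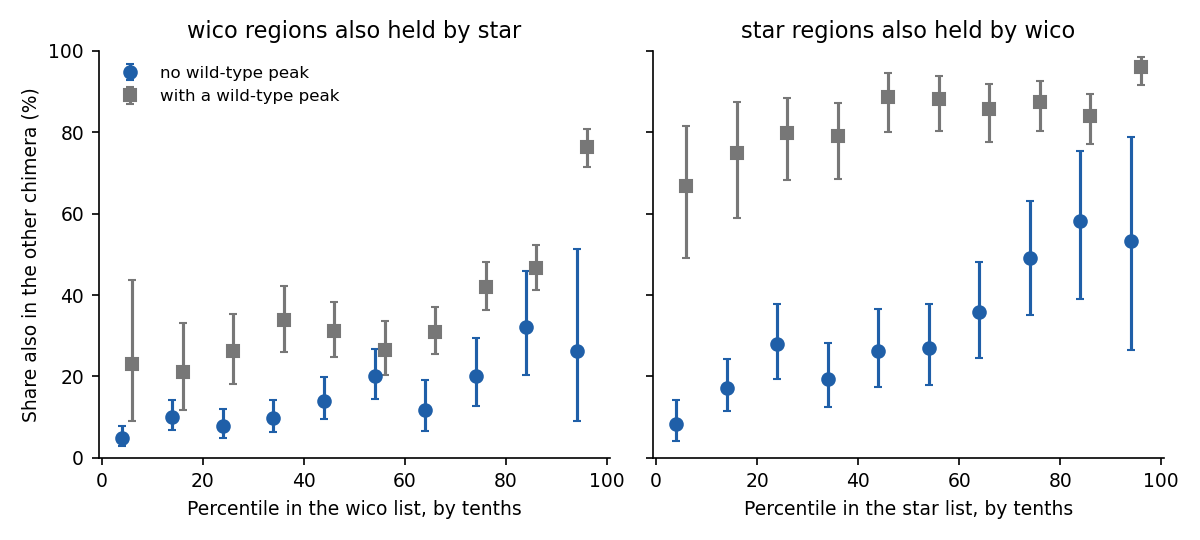
Share of wico regions (left) and star regions (right) also held by the other chimera, in bands of 10 percentile points of the list named under each axis. Circles are regions without a wild-type peak, squares are regions with one, and bars are 95% exact binomial intervals; in each band of both lists the circle lies below the square.

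The share without a wild-type peak was the lower one in each band of 10 percentile points, although the intervals overlapped in wico from 10 to 20, from 50 to 60 and from 80 to 90. In the weakest band of the wico list, 16 of 328 regions without a wild-type peak were in the star list, or 4.88%, against 23.1% of the 26 regions with a wild-type peak. In the strongest band, 5 of 19 regions without a wild-type peak were in the star list, or 26.3% (9.15 to 51.2%), against 76.3% of 342. From the star side, the share rose from 8.27% of 133 regions in the weakest band to 58.1% of 31 regions from 80 to 90 (39.1 to 75.5%), and it was 53.3% of 15 regions in the strongest band (26.6 to 78.7%). Only 5 of the 208 regions were in the strongest wico band and 8 in the strongest star band.

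Signal values carry no stated unit, so each peak was placed by its summed signal at a percentile of its own list, 100 being the strongest. The regions lay near the middle of both lists. Their median percentile was 45.6 in wico, with quartiles at 23.0 and 63.1, and 47.8 in star, with quartiles at 24.7 and 69.9. The range ran from 0.327 to 98.1 in wico and from 1.81 to 99.7 in star. Regions held by a single chimera ranked lower, with a median of 29.0 for the 1561 wico regions and 29.3 for the 620 star regions. The 814 regions present in all 3 lists ranked higher, at 80.3 in wico and 67.3 in star.

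The same order appeared in the global irreproducible discovery rate (IDR), the estimated share of irreproducible peaks at a given rank or better. Percentile and IDR come from the same replicate peaks, so the IDR is not separate support. The authors' lists end at a global IDR of about 0.1. The median −log10 global IDR of the 208 regions was 1.94 in wico and 1.75 in star, against 3.91 and 2.42 for the regions in all 3 lists. The median was 1.53 in wico-only and 1.35 in star-only regions. Over all regions it was 2.20 in wico and 1.79 in star. A global IDR of at most 0.05 was reached by 169 of the 208 wico peaks (81.2%) and by 158 of the star peaks (76.0%). At 0.01 the numbers were 101 and 77. Both peaks of a region were at or below 0.01 in 53 regions, or 25.5% (19.7 to 32.0%). The cap of the column, 5, was reached by 6 wico and 4 star peaks, and by both peaks in 2 regions. On the 7 scaffolds, 357 of 3692 wico and 56 of 1781 star peaks reached this cap. In regions of all 3 lists, both peaks were at or below 0.01 in 56.1%.

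Strength in one chimera went with strength in the other, loosely. Across the 208 regions the percentiles had a Pearson correlation of 0.46 and a Spearman correlation of 0.45, as a description of regions that are not independent replicates. The Spearman correlation over the 814 regions of all 3 lists was 0.46. Both percentiles were at least 50 in 59 regions (28.4%), and both were under 50 in 74 (35.6%). In 34 regions only the wico peak was in the upper part of its list, and in 41 only the star peak was. The wico percentile was the higher one in 94 of 208 regions, or 45.2% (38.3 to 52.2%), whereas in regions of all 3 lists it was the higher one in 68.2% (64.9 to 71.4%). These orders are of ranks in lists of unequal length. The 2 percentiles differed by under 10 points in 76 regions and by at least 50 points in 15.

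**Figure D2:**
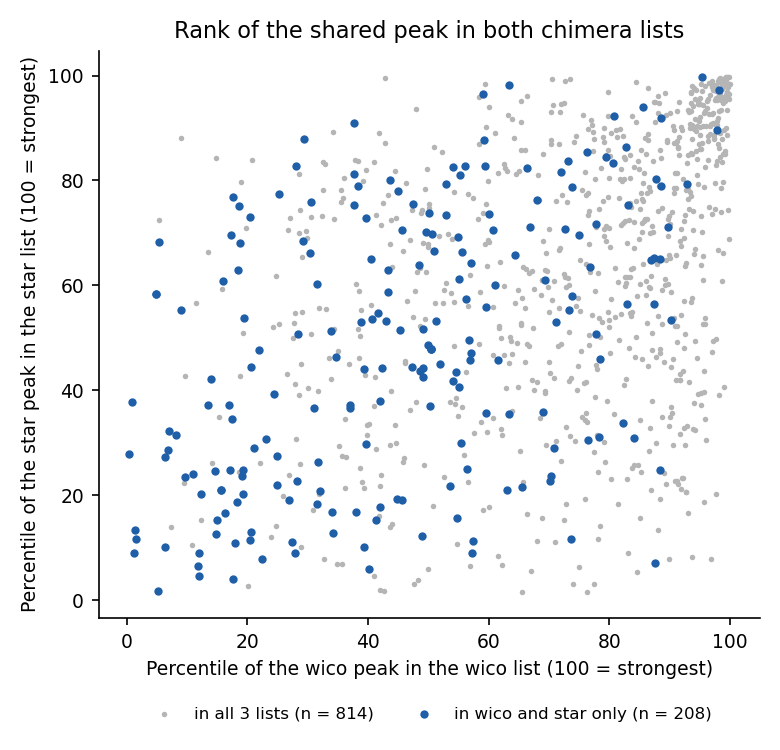
Percentile of the wico peak in the wico list (x axis) and of the star peak in the star list (y axis), 100 being the strongest peak. Blue points are the 208 regions held by wico and star and not by the wild type, spread over both lists; grey points are the 814 regions present in all 3 lists, which crowd toward the upper right.

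The strongest region was at positions 71147338 to 71147797 of HiC_scaffold_4. Its replicate signals were 12.8 and 13.1 in wico and 8.10 and 10.6 in star. It ranked 83 of 4276 in wico and 64 of 2216 in star, and the nearest wild-type peak lay 336805 bp away. All 4 replicate signals stood above 95% of their columns. Both peaks begin at the same base, because the step that removed input had cut 133 bp from the left of the wico peak and 21 bp from the left of the star peak.

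The second strongest was at positions 117222700 to 117222935 of HiC_scaffold_7. Its replicate signals were 9.21 and 11.9 in wico and 13.9 and 13.4 in star. It was the star peak of rank 8, and in wico it ranked 198. The 2 summits were 1 bp apart in a region of only 236 bp, with 890722 bp to the closest peak of the wild type. It had not been cut by the removal of input.

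The third strongest, at positions 3282786 to 3283039 of HiC_scaffold_2, had signals of 13.9 and 11.6 in wico and of 6.66 and 7.78 in star. It stood out more in wico, with a percentile of 97.9, than in star, with 89.7. Its width was 254 bp, and 164122 bp separated it from the nearest wild-type peak.

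Another pair of strong regions lay on the same scaffold. At positions 147169076 to 147169385 the signals were 10.2 and 6.33 in wico and 8.62 and 6.48 in star, so the first column was the higher one in both genotypes. At positions 169524040 to 169524359 they were 7.37 and 8.14 in wico and 7.64 and 8.64 in star. The latter region was 1506 bp from a wild-type peak. Its percentiles were 85.6 in wico and 94.0 in star.

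The remaining 5 of the 10 strongest had percentiles between 79.4 and 92.2 in both lists. They were at positions 110432980 to 110433601 and 109720291 to 109720957 of HiC_scaffold_4, 132770143 to 132770702 of HiC_scaffold_3, 143180571 to 143181009 of HiC_scaffold_7 and 182531762 to 182532004 of HiC_scaffold_2. The first of these was 1847 bp from a wild-type peak that itself had a percentile of only 10.7. Its star replicates placed the summit 330 bp apart, whereas the wico replicates placed it 23 bp apart. The others were at least 23576 bp from a wild-type peak.

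**Figure D3:**
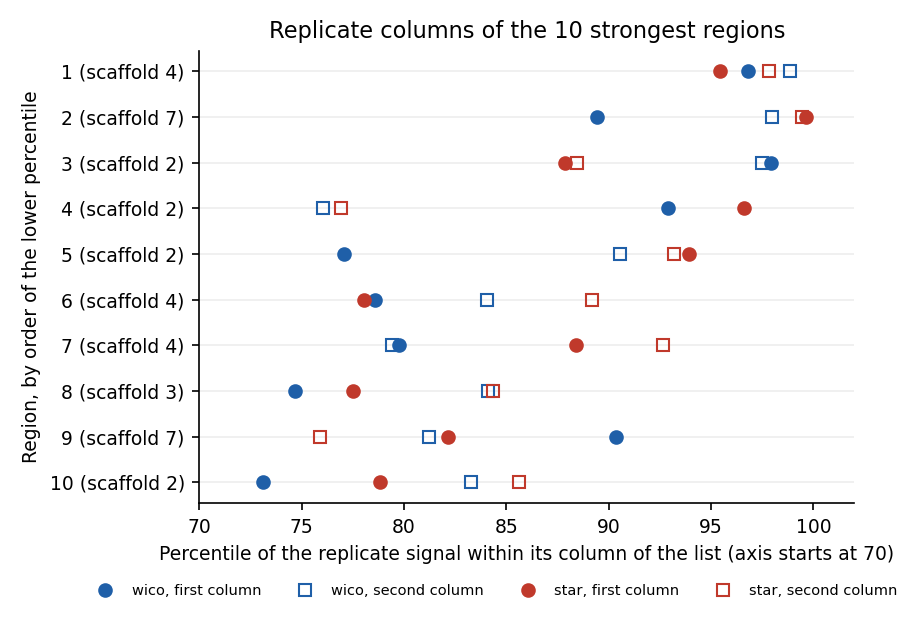
Percentile of each replicate signal within its own column (x axis, starting at 70) for the 10 strongest regions, ordered from the top by the lower of the wico and star percentiles, with the scaffold number on the y axis. Blue is wico and red is star, filled circles are the first and open squares the second replicate column; all 40 values lie above 73.

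The strongest region of each of the other scaffolds was lower. On HiC_scaffold_5, positions 1123528 to 1124068 had percentiles of 92.8 in wico and 79.4 in star, with signals of 9.05 and 9.72 in wico and 7.06 and 5.34 in star. On HiC_scaffold_1, positions 123311834 to 123312320 had 76.2 and 85.5, and on HiC_scaffold_6, positions 112900093 to 112900575 had 73.8 and 78.8. At the other end of the class, the weakest peak was the wico peak at positions 66704425 to 66704925 of HiC_scaffold_2, of rank 4263, with signals of 3.62 and 3.26. Positions 8077038 to 8077387 of HiC_scaffold_6 and 75914710 to 75915543 of HiC_scaffold_7 followed, with wico percentiles of 0.830 and 1.22 and star percentiles of 37.8 and 8.96.

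Some regions ranked high in one chimera list and low in the other. The wico list holds 4276 peaks and the star list 2216, so equal percentiles do not stand for equal depth in both, and the differences below describe ranks, not a difference in binding. With the longer lists cut to the number of star peaks, the order of the median percentiles turned, to 63.9 in wico and 55.6 in star, because weak wico peaks were left out. These percentiles were still taken within the uncut lists, so they do not compare ranks in lists of equal length. The largest difference toward wico was at positions 172723716 to 172724187 of HiC_scaffold_2, with signals of 8.88 and 7.30 in wico and of 3.57 and 4.00 in star. Its percentiles were 87.5 and 6.99, yet the summits were 7 bp apart. Next came positions 95506810 to 95507194 of HiC_scaffold_4, with 88.4 against 24.8, and positions 14970745 to 14971091 of the same scaffold, with 73.7 against 11.6. In all 3, both wico signals were above both star signals.

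Toward star, the largest difference was at positions 37279158 to 37280468 of HiC_scaffold_4, with wico signals of 3.92 and 3.34 and star signals of 6.48 and 4.38. The percentiles were 5.33 and 68.2. At positions 105160225 to 105160555 of HiC_scaffold_1 the star signals were 4.05 and 7.90, and only the second of these exceeded both wico signals, 3.71 and 4.27. At positions 3756985 to 3757344 of HiC_scaffold_2 both star signals, 7.44 and 6.55, were above both wico signals, 3.86 and 4.90. Signals of different lists are set side by side here without a common scale.

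The replicates of each genotype were compared inside the class. In wico the first replicate column was the higher one in 118 of 208 regions (56.7%, interval 49.7 to 63.6%), while it was higher in 69.1% of all wico peaks on the 7 scaffolds. In star it was higher in 61 regions (29.3%, interval 23.2 to 36.0%), against 31.7% of all star peaks there. The interval in wico lies below the share of the list, and that in star includes it. The log2 ratio of first over second column had a median of 0.06 in wico (SD across regions 0.32) and -0.17 in star (SD 0.34). The columns were over 2-fold apart in 1 region in wico and in 2 regions in star. The Spearman correlation between the columns was 0.60 in wico and 0.39 in star, lower than in the regions of all 3 lists, at 0.82 and 0.62. Over all peaks of each list on the 7 scaffolds it was 0.77 and 0.54. Summed signals spread more widely in the regions of all 3 lists (SD 6.11 in wico, 3.61 in star) than in the 208 (3.01 and 2.45). Whether this spread accounts for the lower correlation was not tested. Between genotypes, the 4 column pairs correlated at 0.29 to 0.44.

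Few regions were strong in every library. All 4 replicate signals were in the upper 50% of their columns in 26 regions (12.5%), at or above the 75th percentile in 9, and at or above the 90th in 1, the strongest region on HiC_scaffold_4. All 4 were under the 25th percentile in 3 regions. Among the regions of all 3 lists, 42.8% had all 4 chimera signals in the upper 50%.

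The wico and star peaks of a region pointed to nearly the same position, although the overlap required of them also limits how far apart their summits can be. Among the 201 regions whose deposited summits both lay inside the listed peak, the summits were a median of 22 bp apart, with quartiles at 10 and 52 bp. They were within 50 bp in 150 regions (74.6%) and within 100 bp in 182 (90.5%, interval 85.6 to 94.2%). The median was 19 bp in the regions of all 3 lists, of which 92.6% were within 100 bp. Distances between replicates of 1 genotype are an unlike measure, because most deposited summits are the mean of both replicate summits. In the 208 regions the 2 replicate summits were a median of 23 bp apart in wico and 29 bp apart in star. The wico summit had the higher coordinate in 91 regions and the lower one in 109.

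**Figure D4:**
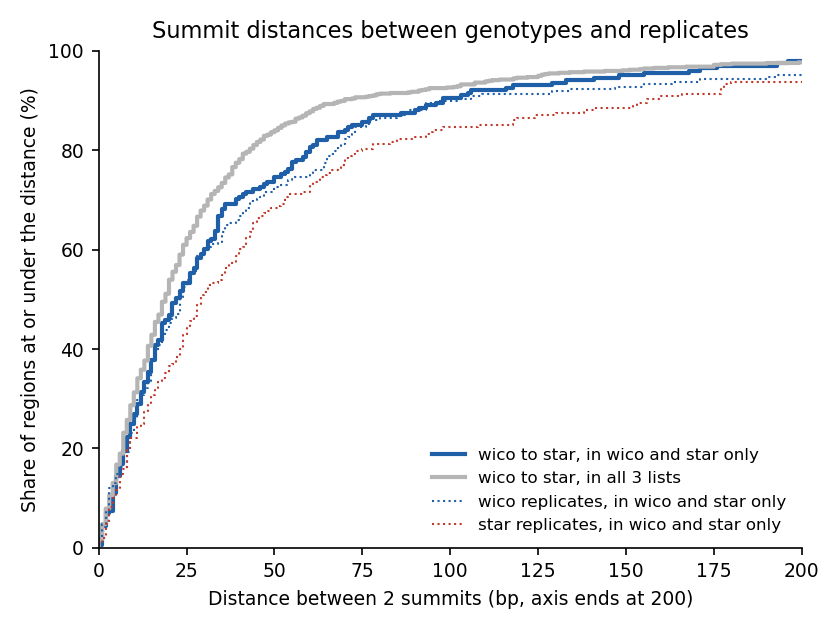
Cumulative share of regions (y axis, %) by distance between 2 summits (x axis, bp, ending at 200). Solid lines are wico to star distances in the 201 regions without a wild-type peak (blue) and in regions of all 3 lists (grey), and dotted lines are distances between the 2 replicates in the 208 regions; the blue solid line runs beside the wico replicate line.

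Stronger regions had closer summits. By the lower of the 2 percentiles, the median distance was 33.5 bp under 25, 18 bp from 25 to 50, 18 bp from 50 to 75 and 8 bp in the 14 regions from 75 upward. In regions of all 3 lists the same bands gave 28, 21, 20 and 14 bp. All 4 replicate summits fell within 100 bp in 140 of the 208 regions (67.3%) and within 200 bp in 180 (86.5%). In regions of all 3 lists, 80.8% fell within 100 bp. All 4 replicate peaks shared at least 1 bp in 206 of the 208 regions, and in 813 of the 814 regions of all 3 lists. In the 208 regions this was largely set by the selection, which required the joined wico and star peaks to overlap.

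The 3 widest summit gaps differed in how far apart the replicates were. At positions 84285081 to 84285872 of HiC_scaffold_3 the summits were 403 bp apart, and the star replicates, with signals of 3.54 and 7.54, placed theirs 492 bp apart. At positions 34699440 to 34700230 of HiC_scaffold_6 the gap was 391 bp, with the star replicates 615 bp apart. At positions 121677518 to 121678380 of HiC_scaffold_3, by contrast, the replicates of each genotype were within 10 bp of each other and the genotypes were 279 bp apart. Its wico percentile was 1.43 and its star percentile 13.4.

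The regions were narrower than those of all 3 lists. The median region width was 405 bp, with quartiles at 335 and 535 bp, against 528.5 bp, where the wild-type peak also adds to the extent. The wico peak alone had a median width of 363 bp and the star peak of 334 bp, against 437 and 379 bp in the regions of all 3 lists. Peaks of wico-only regions were 350 bp wide and those of star-only regions 386 bp. The wico peak was the wider one in 112 of 208 regions. A median of 75.2% of a region was covered by both peaks. Regions under 300 bp numbered 26, or 12.5% (8.33 to 17.8%), against 2.33% in all 3 lists. The lower quartile of region width was 322 bp over all regions. It was 281 bp in wico-only and 288 bp in star-only regions, so widths under 300 bp were more frequent there than in the 208. Among the 14 of the 208 with both percentiles at 75 or more, 3 were under 300 bp wide, against 3 of 247 in all 3 lists.

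Some peaks had been shortened by the removal of input. The wico peak was shortened in 13 of 208 regions (6.25%, interval 3.37 to 10.5%), against 3.14% of all wico peaks on the 7 scaffolds. The star peak was shortened in 14 (6.73%, interval 3.73 to 11.0%), against 5.84% of all star peaks there, so the star share was near that of its list. At least 1 of the 2 peaks was shorter than its replicate peaks in 16 of 208 regions (7.69%, interval 4.46 to 12.2%), against 14 of 814 regions of all 3 lists (1.72%, interval 0.943 to 2.87%). In 11 regions both peaks had been shortened, and in each of these they shared a start or an end. In single-chimera regions 3.59% of wico and 11.9% of star peaks were shortened. Whether a wild-type peak had been removed at such sites was not tested. With these 16 regions left out, 192 regions had median percentiles of 45.4 in wico and 46.2 in star. Cutting also split peaks. The closest pair of regions, 217 bp apart at positions 52110432 to 52110817 and 52111035 to 52112048 of HiC_scaffold_4, carries identical signals of 3.90 and 3.32 in wico and 6.31 and 3.80 in star, as pieces of 1 peak in each list. Counted before the cuts, the 208 regions were 205 pairs of peaks.

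Most regions were far from wild-type peaks. The median distance to the nearest one, edge to edge, was 106 kb, with quartiles at 23.2 and 255 kb. A wild-type peak lay within 1 kb of 10 regions (4.81%, interval 2.33 to 8.66%), within 10 kb of 32 (15.4%, interval 10.8 to 21.0%) and within 100 kb of 100 (48.1%, interval 41.1 to 55.1%). The median was 83.9 kb for wico-only and 117 kb for star-only regions, of which 15.6% and 10.5% had a wild-type peak within 10 kb. The intervals of both, 13.8 to 17.5% and 8.18 to 13.2%, overlap that of the 208 regions at 10 kb. Distance and strength were nearly unrelated, with a Spearman correlation of -0.08 between the lower percentile and the distance.

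**Figure D5:**
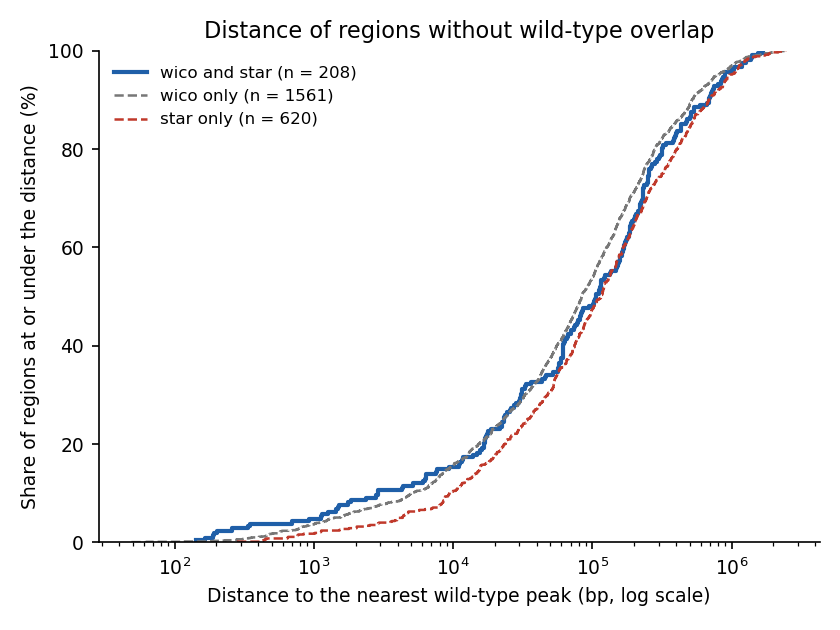
Cumulative share of regions (y axis, %) by distance to the nearest wild-type peak (x axis, bp, log scale) for the 208 regions in wico and star and for regions held by a single chimera. The 3 curves run close together, and their medians lie between 83.9 and 117 kb.

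The regions nearest to the wild type were just outside the limit of overlap. The smallest gap was 143 bp, at positions 37474516 to 37475187 of HiC_scaffold_1, beside a wild-type peak of percentile 98.9 that was present in all 3 lists. Its own signals were 5.32 and 3.98 in wico and 6.86 and 5.40 in star. On the same scaffold, gaps of 165 and 190 bp separated positions 126756122 to 126756518 and 127978971 to 127979366 from wild-type peaks of percentile 53.6 and 60.1. On the other side of the limit, each region of all 3 lists was taken at the larger overlap of its wild-type peak with a chimera peak, and the smallest such value was 136 bp, at positions 33725697 to 33725973 of HiC_scaffold_3.

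At the far end, the nearest wild-type peak was 1687 kb from positions 83245599 to 83245824 of HiC_scaffold_2, a region of 226 bp with percentiles of 66.4 in wico and 82.4 in star. Its signals were 6.55 and 5.43 in wico and 5.29 and 7.56 in star, and its summits were 2 bp apart. Positions 88607155 to 88607658 of HiC_scaffold_1 followed at 1541 kb and the weak region at 66704425 of HiC_scaffold_2 at 1403 kb.

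The wild-type peaks nearest to the regions had a make-up close to that of the whole wild-type list. In 62 cases the nearest peak was present in all 3 lists (29.8%), in 92 it was shared with wico alone (44.2%), in 11 with star alone (5.29%) and in 43 with neither chimera (20.7%). The corresponding shares of all wild-type peaks were 30.3, 41.2, 5.06 and 23.4%. Their median percentile was 48.1 in the wild-type list, against 50.1 for all wild-type peaks on these scaffolds.

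The regions were also compared with sites of all 3 lists, split by the global IDR of their wild-type peak. Of the 814 regions in all 3 lists, 53 had a wild-type global IDR above 0.05. Their median percentiles were 44.6 in wico and 42.8 in star, close to the 45.6 and 47.8 of the 208 regions. In the wild-type list their median percentile was 25.8. Their median region width was 487 bp, against 405 bp in the 208, although the wild-type peak also adds to the extent. The 666 with a wild-type global IDR of at most 0.02 stood at 85.4 and 72.6. When all 3 lists were held to 0.02, 140 regions had both chimera peaks and no wild-type peak, of which 84 belonged to the 208 and 56 held a wild-type peak above 0.02.

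The regions were spread over all 7 scaffolds. HiC_scaffold_4 held 37, HiC_scaffold_7 35, HiC_scaffold_2 33, HiC_scaffold_3 30, HiC_scaffold_1 28, HiC_scaffold_6 26 and HiC_scaffold_5 19. They made up between 2.91% of the regions on HiC_scaffold_5 (interval 1.76 to 4.51%) and 5.34% on HiC_scaffold_7 (3.74 to 7.34%), beside 4.10% on all 7, and these intervals overlap. With each scaffold cut into 5 equal stretches, the one with the highest coordinates held 73 regions (35.1%) and the middle one 20 (9.62%), close to the 35.4% and 10.7% of all regions. Scaffold lengths were taken as the largest listed peak end.

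Spacing was taken within each class, so it depends on how many regions a class holds. The median gap between neighbouring regions was 1042 kb for the 208. It was 140 kb for the 1561 wico-only, 427 kb for the 620 star-only and 191 kb for the 814 regions of all 3 lists. In these larger classes 12.5, 9.35 and 8.97% had another of their class within 10 kb. Among the 208 regions it was 9 (4.33%), of which 5 were pieces of cut peaks on HiC_scaffold_4 and HiC_scaffold_5. The other 4 formed a pair on HiC_scaffold_2, 4837 bp apart, and a pair on HiC_scaffold_3, 3426 bp apart. Within 10 kb of a region, a wico-only region was found in 24 cases, a star-only region in 10 and a region of all 3 lists in 16. In all, 58 of the 208 had a region of some other class within 10 kb (27.9%). These counts also depend on class size, and the corresponding share over all regions is not given here. They therefore do not show whether neighbours were frequent. The lists pair no peak with a gene, and genes near these sites were not analysed here.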

How the data were processed

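ChIP-seq peak lists of wild-type, wico and star petals were used, 1 list per genotype from 2 libraries; lists were matched to genotypes by the library numbers in their names. The submitters' processing notes name Bowtie2 2.4.2, MACS2 and bedtools, without parameters; the genome build is not given in the sources used here. The columns follow the layout of the idr program. The signal deposited by the authors is the sum of 2 replicate signals in every row (tolerance 0.0001). The authors deposited the global IDR as −log10 values, which end at a cap of 5. Summit offsets were counted from the peak start before input removal. From that start, 94.9 to 98.1% of the summits per list equal the mean of both replicate summits within 1 bp. Percentiles were taken within whole lists. The replicate columns do not say which library is which.

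Positions count from 1. Shares have exact Clopper-Pearson intervals at 95%. No test between genotypes was made, because there is 1 list per genotype. Named regions follow fixed rules: the 10 highest by the lower percentile, the strongest per scaffold, and the extremes of percentile difference, wild-type distance, summit distance, weakness and spacing. The regions and rules were chosen with earlier results of these data known. Merging was checked on simulated lists, where 200 of 200 placed regions were recovered. Tables were handled with pandas 2.3.3 and numpy 2.4.6 under Python 3.11.15, intervals were taken from scipy 1.17.1 and plots were drawn with matplotlib 3.10.9.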

Additional observations from a re-analysis of the deposited data

How the results depend on the processing

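The number of regions, 208, was 84 when only the chimera lists were held to a global IDR of 0.02 and 124 when the longer lists were cut to as many peaks as star has; in the other 10 alternatives it lay between 140 and 248, the latter on all scaffolds. Fewer chimera peaks are available by construction in the first 2 settings. The median percentiles in wico and star were 54.9 and 58.7 with all lists at 0.05, 58.2 and 66.0 with all lists at 0.02, 57.1 and 69.4 with the chimera lists at 0.02, and 63.9 and 55.6 with lists of equal length, where weak peaks are left out by construction. All of these percentiles were still taken within the uncut lists. The median summit distance was 15.5 bp with all lists at 0.02, 16.5 bp with the chimera lists at 0.02, and 30.0 bp between peak centres. The median distance to a wild-type peak was 168056.5 bp with all lists at 0.02, where fewer wild-type peaks are available. The other alternatives kept each median within its 95% order-statistic interval. The extents before input removal, the omission of shortened peaks, the overlap of all 4 replicate peaks and the summit from the listed start were added after seeing the data.

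No paired analysis was possible because every entry of a list joins a peak from each library, and nothing ties a replicate column to a library number. Rebuilding the class without 1 replicate was likewise not possible. The unknown depth limits what absence from the wild-type list can show.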
